A study of Homo sapiens with 42 samples.

Results

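The loci of 5 genes of the intestinal lineage, CDX1, CDX2, HNF4A, VIL1 and GATA6, were examined in chromatin accessibility data from HCT116 cells, a colorectal adenocarcinoma line, and from 6 other cancer cell lines. The genes were chosen by their known role, and not by a measured value, out of 19974 protein-coding gene loci. Earlier results of these data were known when they were chosen. A locus was the gene and 100 kb on each side, and a peak belonged to it when its summit lay inside. The 5 loci held 5434 of the 9861908 peaks in the 42 deposited lists. CDX1 had 1279 of them, CDX2 803, HNF4A 1390, VIL1 1176 and GATA6 786.

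CDX1 and CDX2 are caudal-type homeobox transcription factors that set and keep intestinal identity. HNF4A is a nuclear receptor that acts with them at enhancers of enterocyte genes, and it is read from more than one promoter. GATA6 is a zinc-finger transcription factor of the endoderm that is needed for epithelial renewal in the gut. VIL1 encodes villin, the actin-bundling protein of the microvillus core, and stands for the differentiated product of that program. Nucleosomes over the regulatory elements of such genes are moved by the SWI/SNF (BAF) complexes, whose motors are the ATPases SMARCA4 and SMARCA2.

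FHT-1015, which inhibits both ATPases, or the vehicle DMSO was given to every line for 4 h. Open chromatin was then read by ATAC-seq, which tags accessible DNA with a transposase. Beside HCT116 the lines were MV411 from acute myeloid leukaemia, DU4475 from invasive breast carcinoma, 22RV1 from prostate adenocarcinoma, RD from rhabdomyosarcoma, A375 from melanoma and 92-1 from uveal melanoma, all labelled with the genotype WT, and there were 3 biological replicates for each line and treatment. Each tumour type was represented by 1 established line. The labels call the replicates biological without naming separate cultures, and a p-value measures only the spread between these samples. A change of bulk signal cannot tell fewer cells with an open site from less opening in each cell.

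The lists held 114291 to 431956 peaks, made with a lenient threshold. Comparisons therefore used strict peaks, those whose q-value given by the authors has a −log10 of at least 5, and there were 1412 to 121774 of them per sample. In HCT116 the strict lists held 17552 to 27364 peaks. The third FHT-1015 sample of HCT116 stood apart, with the longest list of the line (313558 peaks) and the fewest strict peaks (17552), and FHT-1015 samples 2 and 3 of 92-1 had only 2037 and 1412 strict peaks. Results that rest on these libraries are given with and without them. Read depth is not in the lists. Its stand-in, the background pileup behind the p-values, was 0.157 to 0.319 in HCT116 and 0.0341 to 2.79 over all samples.

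The promoters of 3 of the 5 genes were in the RefSeq table (GRCh38.p14, 250 bases before to 50 after each start), and they are shown because accessibility at the starts was measured below. Capitals mark matches, on either strand, to the letters searched. For the GATA factors these were AGATAA, for the caudal factors CNATAAA, and for HNF4, as a piece of its site, CAAAG. The letters searched for the AP-1 factors were TGANTCA, for the TEAD factors GGAATG, for the forkhead factors of the FOXA family TGTTTAC, and for the SP and KLF factors GGGCGG. No printed matches overlapped. The CDX2 start is chr13:27969266-27969565 on the minus strand, the HNF4A starts are chr20:44355449-44355748 and chr20:44400989-44401288 on the plus strand, and the GATA6 start is chr18:22169339-22169638 on the plus strand.
CDX2: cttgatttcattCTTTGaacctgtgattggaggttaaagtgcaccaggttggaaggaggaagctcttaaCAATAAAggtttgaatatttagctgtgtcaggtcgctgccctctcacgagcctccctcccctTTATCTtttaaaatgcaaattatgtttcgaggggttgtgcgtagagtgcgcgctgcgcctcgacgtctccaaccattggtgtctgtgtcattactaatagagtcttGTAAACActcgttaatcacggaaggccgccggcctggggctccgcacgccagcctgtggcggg
HNF4A, first start: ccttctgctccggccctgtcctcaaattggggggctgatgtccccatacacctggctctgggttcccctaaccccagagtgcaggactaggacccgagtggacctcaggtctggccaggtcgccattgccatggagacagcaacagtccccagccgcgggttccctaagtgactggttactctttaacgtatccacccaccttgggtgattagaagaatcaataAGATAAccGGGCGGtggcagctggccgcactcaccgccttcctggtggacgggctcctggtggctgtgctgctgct
HNF4A, second start: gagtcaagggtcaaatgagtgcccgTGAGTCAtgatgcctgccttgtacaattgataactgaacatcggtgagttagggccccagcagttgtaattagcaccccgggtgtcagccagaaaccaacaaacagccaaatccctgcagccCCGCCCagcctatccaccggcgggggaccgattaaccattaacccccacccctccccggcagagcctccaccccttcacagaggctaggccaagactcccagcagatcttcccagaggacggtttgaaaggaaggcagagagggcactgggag
GATA6: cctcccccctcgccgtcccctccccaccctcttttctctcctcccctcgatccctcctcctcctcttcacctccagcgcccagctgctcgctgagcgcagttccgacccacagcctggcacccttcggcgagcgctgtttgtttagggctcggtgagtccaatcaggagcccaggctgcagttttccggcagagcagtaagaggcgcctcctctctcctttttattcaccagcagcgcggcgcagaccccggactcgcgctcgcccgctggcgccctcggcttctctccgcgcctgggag

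The GATA6 promoter was the richest of the 4 in CpG, with 25 CpG dinucleotides and 66.7% GC against a median of 21 and 62.3% over 22132 protein-coding promoters. It held none of the motifs searched. The CDX2 promoter held 16 CpG at 50.3% GC and 1 match each to the GATA, CDX, HNF4 and FOXA letters, which occur in 7.88%, 8.01%, 43.5% and 2.85% of all promoters of that length. The HNF4A promoters were poorer in CpG, with 11 at the first start and 9 at the second. The first held 1 GATA and 1 SP and KLF match and the second 1 AP-1 and 1 SP and KLF match, and these AP-1 and SP letters occur in 6.15% and 56.3% of promoters. A match is a description of the letters and not a bound site.

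The homeobox gene CDX2 (chr13:27960918-27969315) had a peak at its start in HCT116 and in DU4475 and in few samples of other lines. A deposited peak overlapped the 500 bp on either side of the CDX2 start in all 6 HCT116 samples, and the −log10 q was 4.08, 2.36 and 9.79 with DMSO and 4.02, 4.20 and 0.924 with FHT-1015. The third DMSO sample alone had a strict call there. With DMSO, 7 of 21 samples had a peak at this start, namely the 3 of HCT116, the 3 of DU4475 and 1 of 92-1, and with FHT-1015 there were 8 of 21. In HCT116 the DMSO summits lay 34, 11 and −7 bp from the start in genome coordinates, inside the printed sequence, and in DU4475 they lay −798, −557 and −555 bp from it, within the gene.

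The start of GATA6 (chr18:22169589-22202528) carried a deposited peak in all 21 DMSO samples and in 20 of 21 FHT-1015 samples. A strict call was found there in 14 of 21 DMSO samples and 7 of 21 FHT-1015 samples. In HCT116 the −log10 q was 5.31, 2.36 and 9.14 with DMSO and 2.25, 2.94 and 2.37 with FHT-1015, so the treatments overlapped. Their summits lay −116 to −176 bp from the start, upstream of it and inside the printed CpG-rich promoter. The prostate line 22RV1 had the highest values, 14.7, 18.8 and 11.4 with DMSO and 5.20, 15.0 and 4.10 with FHT-1015. A q-value also moves with depth, so these values describe each peak within its own list.

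**Figure D1:**
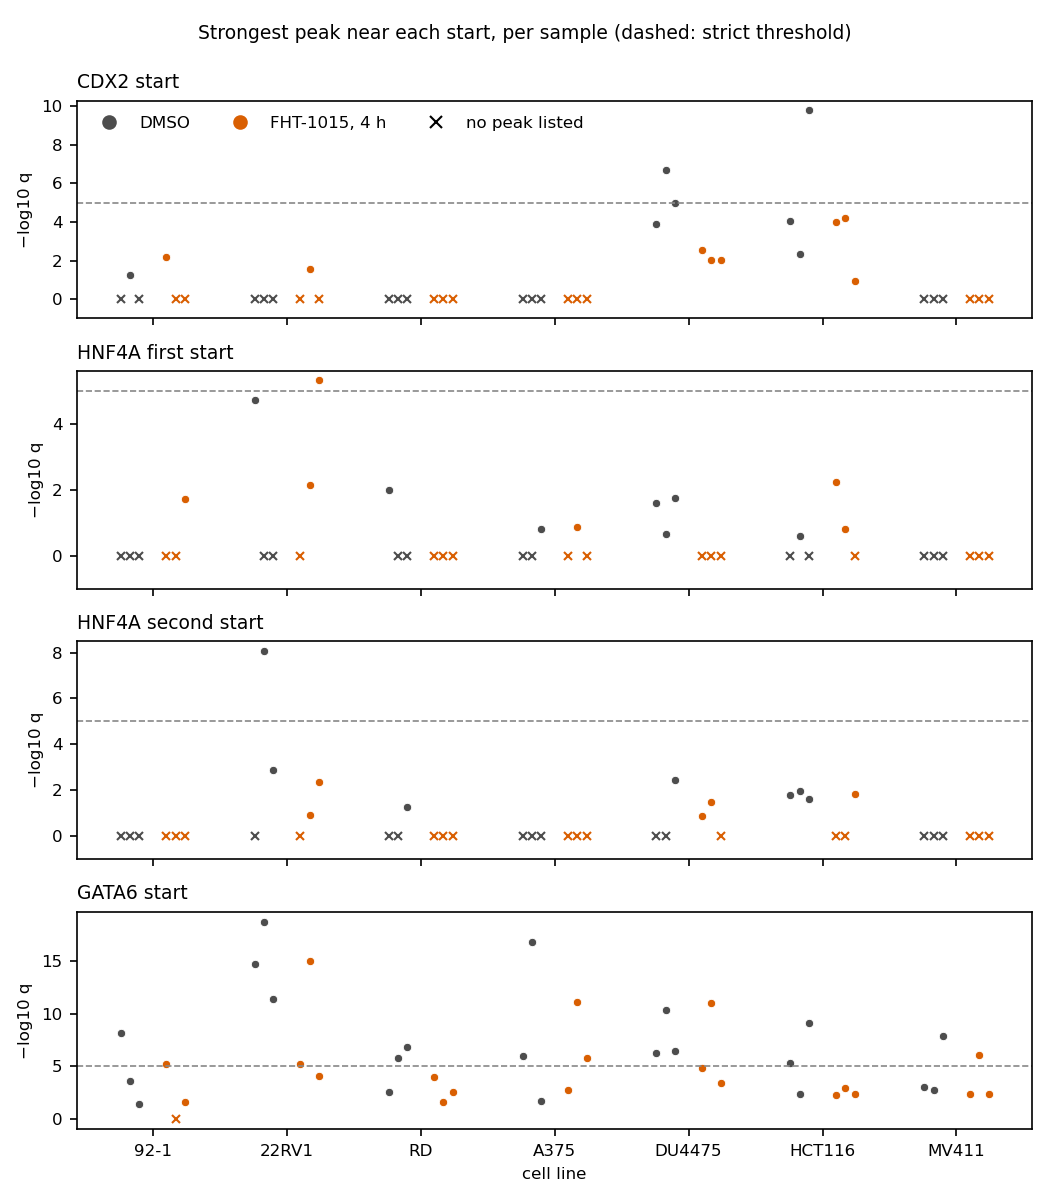
Strongest deposited peak overlapping 500 bp on either side of each annotated start, as its −log10 q (vertical axis) in each sample of the 7 lines (horizontal axis). Crosses mark samples with no peak, the dashed line is the strict threshold of 5, and the GATA6 start has a peak in nearly all samples where the CDX2 start has one mainly in HCT116 and DU4475.

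The nuclear receptor gene HNF4A (chr20:44355699-44434596) had no strict peak at either start in HCT116. At the first start weak peaks were listed in 1 of 3 DMSO samples (0.61) and in 2 of 3 FHT-1015 samples (2.25 and 0.81). Weak peaks overlapped its second start in all 3 DMSO samples, with −log10 q of 1.77, 1.96 and 1.62, and in 1 of 3 FHT-1015 samples, with 1.81. VIL1 (chr2:218419123-218453295) had no peak of its own in HCT116: none of the 6 samples had a deposited peak at either gene end or a strict peak within 10 kb of the gene. For CDX1 (chr5:150166778-150184558) the end with the lower coordinate had weak peaks in 2 of 3 DMSO samples, with −log10 q of 2.66 and 0.693, and none with FHT-1015. Strands of CDX1 and VIL1 are not in the tables used, so their ends are named by coordinate.

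In order to ask whether FHT-1015 changes accessibility at these loci in HCT116, strict peaks per locus were compared. No locus was called among the 19847 tested: the share called was 0% lower and 0% higher (limma, Benjamini-Hochberg adjusted p of 1.00 for each of the 5). In simulated counts the loci made lower had HCT116 DMSO means of at least 3, and limma recovered only a minority of them. CDX1 and GATA6, with DMSO means of 2.33 and 1.33, lie below that range. The absence of calls therefore does not show that the loci were unchanged. At unadjusted p below 0.05, limma had 127 loci higher and 191 lower, and GATA6 was among the latter. Over the 5 loci together the 3 DMSO samples had 13, 14 and 14 strict peaks and the FHT-1015 samples 15, 15 and 7.

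GATA6 had 2, 1 and 1 strict peaks under DMSO and 0, 0 and 0 under FHT-1015 in HCT116, and it was the only member whose treatments did not overlap. The share of all loci without overlap was 2.39% lower and 2.12% higher. The difference was −1.20 ± 0.51 on the log2(count + 1) scale (SE, n = 3 per group), with an unadjusted limma p of 0.0225 and an exact permutation p of 0.1, the smallest that 3 against 3 samples allow (two-sided). Of all loci tested, 0.267% had a lower estimate. With so few peaks the size depends on the constant added, and the estimate was −2.64 when counts were scaled per 100000 strict peaks and −0.67 over the 20000 strongest peaks of each list, in each case with no call. On all deposited peaks it was −0.43.

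The 4 DMSO peaks at GATA6 lay at 2 places. At the start, samples 1 and 3 had strict peaks with −log10 q of 5.31 and 9.14. At 21.4 kb past the gene's far end (chr18:22223642-22224141), in a stretch with no other gene in the window, the first and second samples had −log10 q of 5.53 and 6.39. The other 4 samples had a weaker deposited peak at the start, and 2 of 3 FHT-1015 samples kept a deposited peak at the distal region.

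CDX2 had 2, 4 and 3 strict peaks under DMSO and 3, 3 and 0 under FHT-1015, and CDX1 had 2, 2 and 3 with DMSO and 3, 4 and 0 with FHT-1015. In both the 0 came from the FHT-1015 sample that stood apart. The estimates were −0.64 ± 0.46 for CDX2 and −0.28 ± 0.66 for CDX1 (SE, n = 3 per group), and without that sample they were 0.03 and 0.44. HNF4A had 3, 3 and 4 strict peaks under DMSO and 4, 4 and 4 under FHT-1015, and VIL1 had 4, 4 and 3 with DMSO and 5, 4 and 3 with FHT-1015. Their estimates were 0.21 ± 0.51 and 0.09 ± 0.41. The groups of all 4 overlapped, with exact permutation p of 0.7, 1, 0.4 and 1 in the order CDX2, CDX1, HNF4A and VIL1 (two-sided, 3 against 3).

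**Figure D2:**
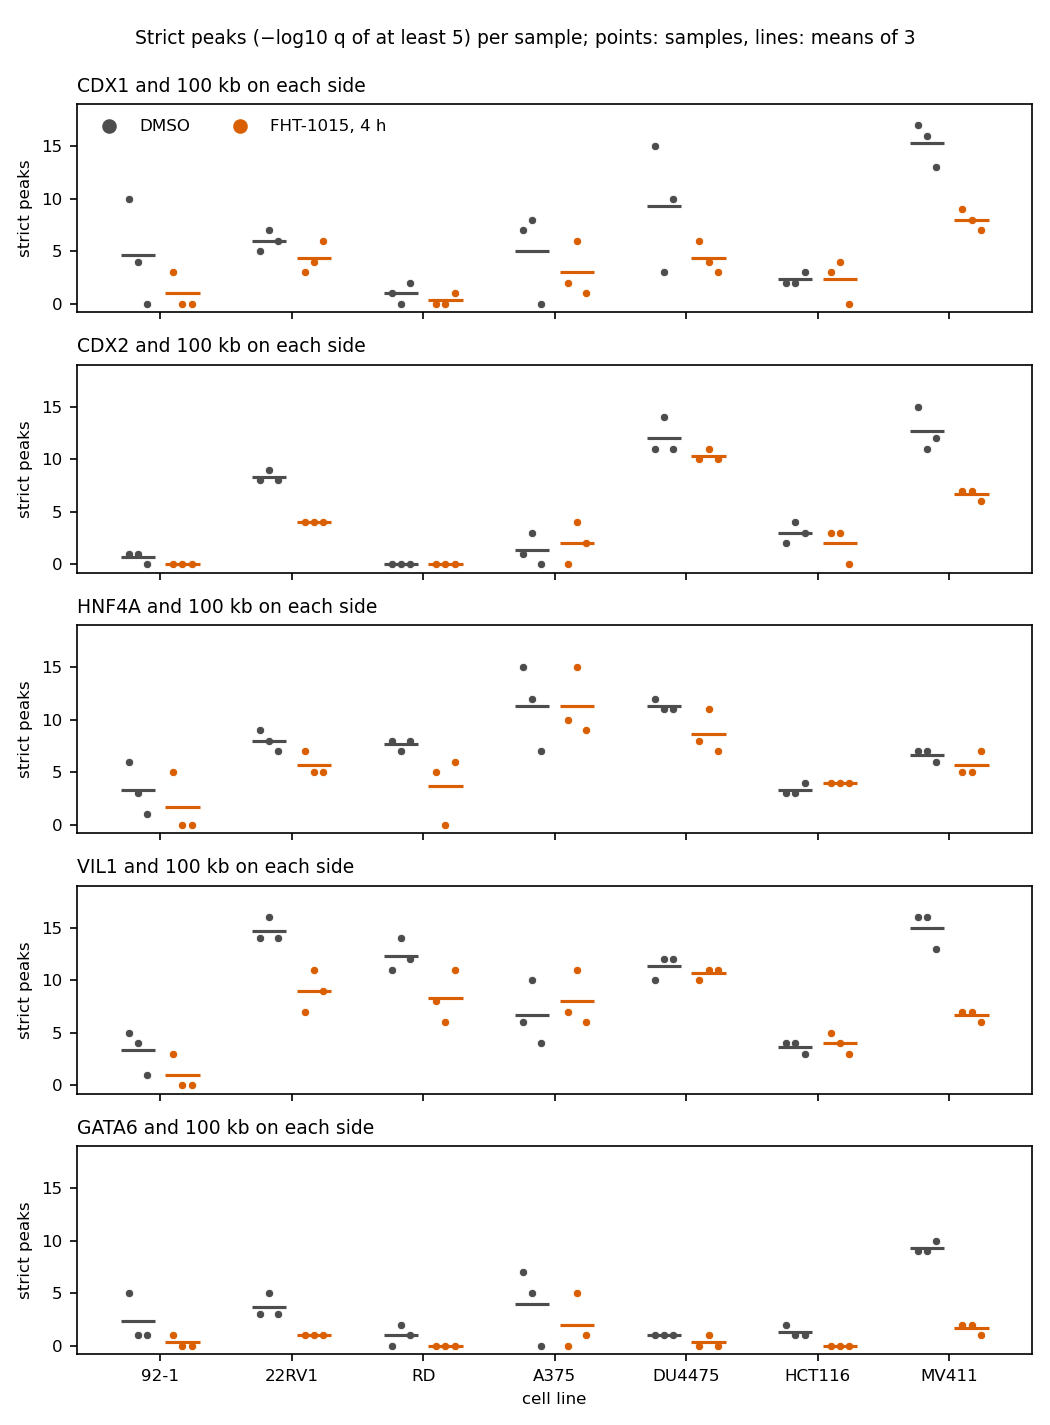
Strict peaks per locus (vertical axis) in each sample of the 7 lines (horizontal axis), with 1 panel per gene and bars at the means of 3 samples. In HCT116 all counts lie between 0 and 5, and the FHT-1015 points of GATA6 are all at 0.

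Most strict peaks in these windows lay outside the members and over 1 kb from their ends. Of 41 strict peaks in the 3 DMSO samples of HCT116, 6 lay inside a member or within 1 kb of its ends, and of 37 with FHT-1015 it was 4. With DMSO, 18 lay within 1 kb of another gene's end, 7 inside another gene and 10 between genes. With FHT-1015 it was 18, 4 and 11. The windows overlapped 18 other protein-coding genes: CSF1R, PDGFRB, SLC6A7 and CAMK2A around CDX1, PDX1, URAD and FLT3 around CDX2, GDAP1L1, FITM2, R3HDML, TTPAL, SERINC3 and PKIG around HNF4A, and PNKD, CATIP, SLC11A1, CTDSP1 and USP37 around VIL1. No other protein-coding gene overlapped the GATA6 window. A count over a window is therefore not a count over the gene. This holds at GATA6 too, where 2 of the 4 DMSO strict peaks of HCT116 lay between genes. At the 100 kb limit in HCT116, the farthest strict summits inside were 53.3, 45.2, 97.3, 96.1 and 21.3 kb from CDX1, CDX2, HNF4A, VIL1 and GATA6, and the nearest ones outside were at 102, 131, 145, 115 and 130 kb.

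**Figure D3:**
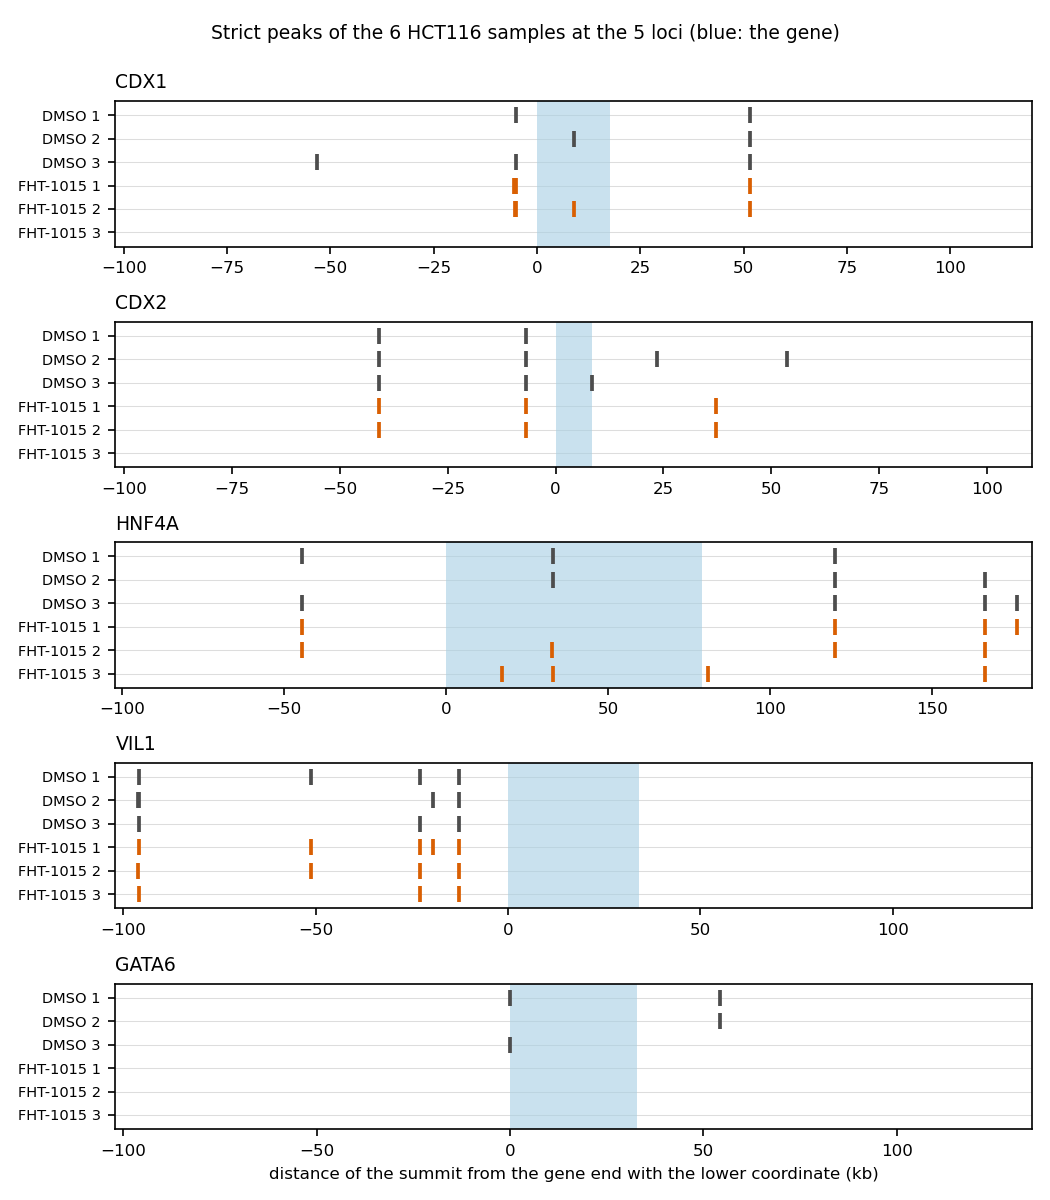
Positions of strict summits at the 5 loci in the 6 HCT116 samples (rows), as the distance in kb from the gene end with the lower coordinate, with the gene shaded. The VIL1 peaks all lie outside the gene, and the GATA6 rows are empty with FHT-1015.

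The most accessible HCT116 element in each window was taken by its percentile of −log10 p within each list (median of 3 DMSO samples). At VIL1 it was chr2:218406181-218406680, 12.7 kb below the gene and beside the end of CTDSP1, at the percentile of 98.1. Its −log10 q was 24.5, 28.9 and 19.2 with DMSO and 31.4, 37.8 and 29.3 with FHT-1015, and its rank within each list was 2321, 2486 and 4676 with DMSO and 2417, 2362 and 1728 with FHT-1015. It was thus strict in all 6 samples, and the ranks overlapped. At HNF4A it was chr20:44521874-44522373 at the end of SERINC3, 87.5 kb from HNF4A. Near CDX2 it was chr13:27953790-27954289, 6.88 kb past the 3′ end of the gene, and the strict values of −log10 q were 8.51, 7.16 and 10.2 with DMSO and 8.05 and 7.40 with FHT-1015, the third FHT-1015 sample having no strict peak. That element was also strict in all 6 samples of 22RV1, DU4475 and MV411. At CDX1 it was chr5:150218080-150218579, 33.8 kb from the gene, at the percentile of 92.68. Its strict values of −log10 q were 6.83, 6.45 and 10.7 with DMSO and 5.22 and 14.3 with FHT-1015, again without the third FHT-1015 sample. For GATA6 the places with strict peaks are given above.

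Closer to the genes, HCT116 had 2 neighbouring elements below CDX1. The nearer one, chr5:150161543-150162042, was strict in DMSO samples 1 and 3 (−log10 q of 6.07 and 6.10) and in FHT-1015 samples 1 and 2 (12.6 and 5.73). The farther one, chr5:150161039-150161538, was strict in no DMSO sample and in FHT-1015 samples 1 and 2 (20.2 and 18.2), and a deposited peak lay there in 3 samples of each treatment. An element inside HNF4A, about 33.0 kb past the first start, was strict in 2 of 3 DMSO samples (9.34 and 11.5) and in 2 of 3 FHT-1015 samples (7.40 and 5.22).

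Calls of 500 bp regions gave the same picture for single elements. Of 342202 regions with a strict call in any sample, 172 lay in the 5 windows. HCT116 had 7 of them in all 3 DMSO samples and 4 in all 3 FHT-1015 samples. None of the 7 was absent from all FHT-1015 samples, where 5.84% of such regions were lost over the genome, and none of the 4 was absent from all DMSO samples, where 2.15% were gained. With all deposited peaks, 2 of 22 regions were lost, both at CDX1, beside 1903 of 29649 over the genome. None of 15 was gained, beside 797 of 26318. With strict calls and without the FHT-1015 sample that stood apart, 2 were gained and none lost. Over the genome 1172 were then gained and 861 lost.

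In order to place HCT116 among the lines before treatment, DMSO levels were compared. For CDX2 the order of mean strict peaks (SD, n = 3) was MV411 at 12.7 ± 2.08, DU4475 at 12 ± 1.73, 22RV1 at 8.33 ± 0.577, HCT116 at 3 ± 1, A375 at 1.33 ± 1.53, 92-1 at 0.667 ± 0.577 and RD at 0. The ranges separated DU4475 from 22RV1 and 22RV1 from HCT116, and the other neighbours in the order overlapped. CDX1 ran from 15.3 ± 2.08 in MV411 to 1 ± 1 in RD, with HCT116 next to last at 2.33 ± 0.577, and all neighbours overlapped.

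HCT116 was last for HNF4A at 3.33 ± 0.577, level with 92-1 at 3.33 ± 2.52, under A375 and DU4475 at 11.3 ± 4.04 and 11.3 ± 0.577, 22RV1 at 8 ± 1, RD at 7.67 ± 0.577 and MV411 at 6.67 ± 0.577. For VIL1 it was next to last at 3.67 ± 0.577, between A375 at 6.67 ± 3.06 and 92-1 at 3.33 ± 2.08, and MV411 led at 15 ± 1.73. GATA6 was highest in MV411 at 9.33 ± 0.577, clear of A375 at 4 ± 3.61, and HCT116 had 1.33 ± 0.577. For HNF4A only DU4475 and 22RV1, and for GATA6 only MV411 and A375, were neighbours without overlap.

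Against the mean of the other 6 lines, the DMSO samples of HCT116 were lower at HNF4A by −0.95 ± 0.39 (limma adjusted p = 0.0410) and at VIL1 by −1.14 ± 0.31 (limma adjusted p = 0.00438) on the log2(count + 1) scale. CDX1 at −0.75, CDX2 at −0.09 and GATA6 at −0.61 were not called. Strict lists were shorter in HCT116, and 46.3% of all loci were called lower and 0.202% higher, with a median of −0.78. Relative to that median the members were 0.03 (CDX1), 0.69 (CDX2), −0.17 (HNF4A), −0.36 (VIL1) and 0.17 (GATA6). Over the 20000 strongest peaks of each list, which gives all lists the same length, CDX1 at 1.08 and CDX2 at 0.70 were called higher in HCT116 (limma adjusted p = 0.0169 and 0.0252, median of all loci 0.15), as were 14.9% of all loci, and no member was called lower. The HNF4A call was also lost without any 1 of the DMSO samples of HCT116 and without 22RV1, A375, DU4475 or MV411, with adjusted p between 0.0671 and 0.140 in limma.

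The high counts of MV411 at CDX1 and CDX2 were mostly within other genes. Of its 46 DMSO strict peaks at the CDX1 locus, 31 were inside another gene, and at CDX2 it was 21 of 38. Of the 36 strict peaks of DU4475 at CDX2, in contrast, 14 were in the gene or within 1 kb of its ends. Within 10 kb of CDX2 this breast line had 9, 10 and 8 strict peaks under DMSO and 8, 8 and 7 under FHT-1015, against 1, 1 and 2 and then 1, 1 and 0 in HCT116. VIL1 was accessible in 22RV1, with 5, 5 and 5 strict peaks within 10 kb with DMSO and 1, 3 and 1 with FHT-1015.

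Intestinal markers did not single out the colorectal line. Over 9 marker genes (the 5 members with CDH17, LGALS4, GPA33 and KRT20) the DMSO samples of HCT116 had 8, 8 and 9 strict peaks within 10 kb, and VIL1 and KRT20 had none in any. Of the 9 genes, 4 had a strict peak in all 3 of these samples, beside 56.6% of all loci. KRT20 had none in the DMSO samples of any line, and VIL1 had none in RD, A375 and DU4475 either. LGALS4 had strict peaks in HCT116 and MV411 and none in the other lines. The sums over the 9 genes were not scaled for the length of the strict lists, which differed between the lines. These sums were 26 to 31 in MV411, 22 to 27 in 22RV1, 19 to 25 in DU4475, 0 to 12 in A375, 4 to 6 in RD and 2 to 15 in 92-1. Of markers of other cell types, 5 myeloid genes had 0, 0 and 3 strict peaks in HCT116, with CEBPE, MPO and CD33 at 0. Sums were 4 to 5 for melanocyte genes (SOX10 and TYR at 0), 3 to 4 for skeletal muscle genes (MYOG and PAX3 at 0) and 3 to 8 for 5 epithelial genes, of which none was at 0. Of these 5, 2 had a strict peak in all 3 HCT116 samples, beside 56.6% of all loci. None was at 0 either in MV411, 22RV1 and DU4475, with sums of 9 to 12, 15 to 20 and 21 to 24. In 92-1, RD and A375, 2, 4 and 1 of them were at 0.

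Averaged over the 7 lines, all 5 loci had fewer strict peaks with FHT-1015, and so did most of the genome, where 67.7% of loci were called lower with a median of −0.48. GATA6 changed most among the members, by −1.11 ± 0.19 (SE, limma adjusted p = 1.20e-05), with a lower mean in 7 of 7 lines and a permutation p within lines of 4.00e-05 (100000 draws, two-sided). Of all loci, 2.56% had a lower estimate. The other 4 lay near the median: CDX1 at −0.63 (limma adjusted p = 0.0257), VIL1 at −0.47 (0.00887), HNF4A at −0.45 (0.0346) and CDX2 at −0.42 (0.0320). Their means of log2(count + 1) were lower in 7, 5, 5 and 5 of the 7 lines, in that order, although the mean count of CDX1 in HCT116 was 2.33 under both treatments.

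The calls changed with the scaling. Per 100000 strict peaks of a sample (median of all loci −0.06), GATA6 was −1.36 (limma adjusted p = 9.28e-04) beside 7.26% of all loci called lower, and the other 4 were not called, with adjusted p of at least 0.655. Over the 20000 strongest peaks of each list (median 0.11), GATA6 was −0.31 (limma adjusted p = 0.0488) and HNF4A was called in the other direction, at 0.39 (0.0200), beside 7.82% of all loci called lower and 28.1% higher, while CDX1, CDX2 and VIL1 turned positive with no call. Among all deposited peaks no member was called, GATA6 being −0.22. The 3 DMSO samples of HCT116 had 3, 3 and 3 of the 20000 strongest peaks at HNF4A and the FHT-1015 samples 4, 4 and 5. Without the FHT-1015 sample that stood apart, CDX1 and CDX2 were no longer called (−0.52 and −0.32, adjusted p = 0.0552 and 0.0765), and without 92-1 neither these nor HNF4A was, with GATA6 then at −1.09 (limma adjusted p = 8.73e-05). With 92-1 kept but without its FHT-1015 samples 2 and 3, GATA6 alone was called, at −1.01 (limma adjusted p = 3.97e-04), beside 40.1% of all loci called lower, and CDX1, CDX2, HNF4A and VIL1 were −0.44, −0.42, −0.21 and −0.28. Leaving out MV411 kept only the GATA6 call, at −0.96, and leaving out 22RV1 kept 2 calls, GATA6 at −1.09 among them.

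**Figure D4:**
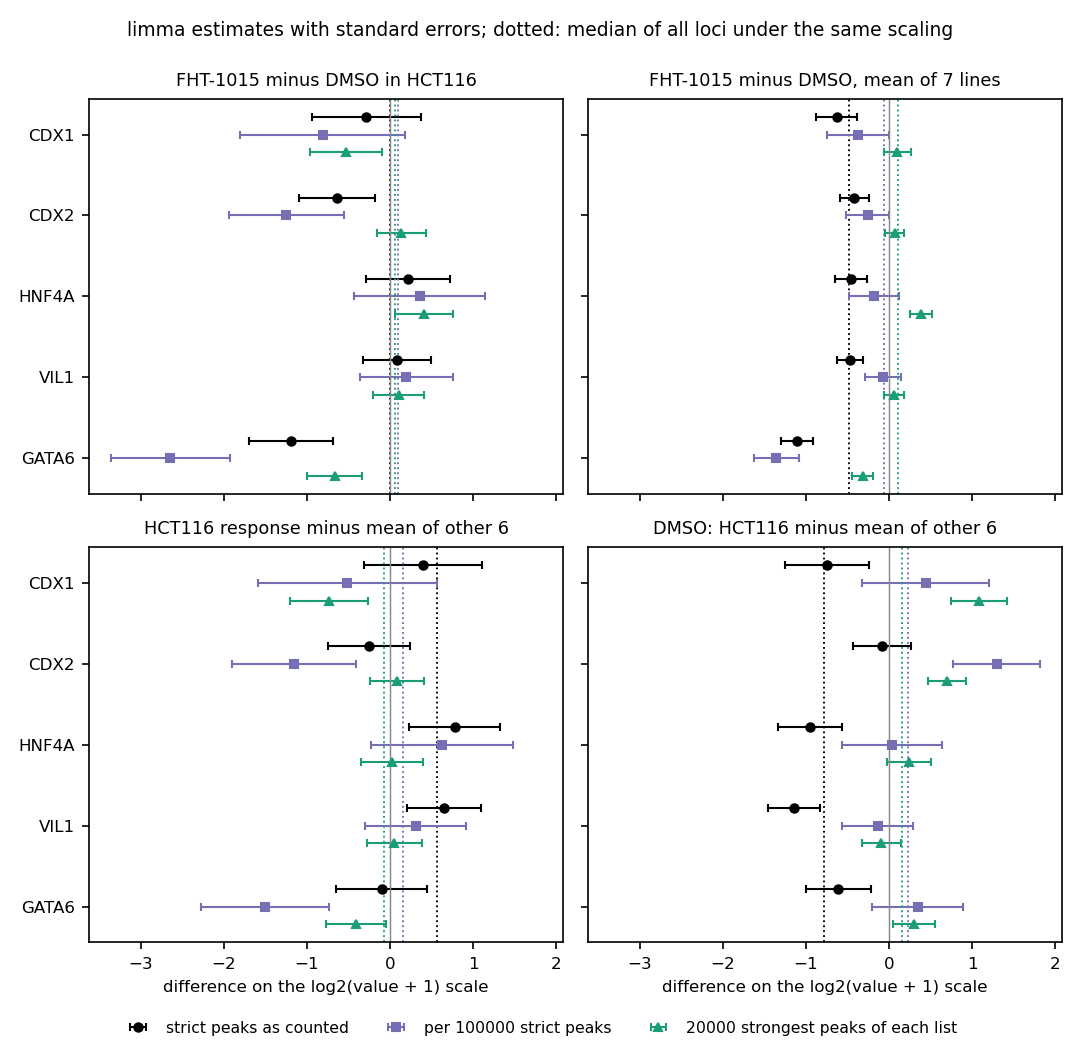
limma estimates with standard errors (horizontal axis, log2(value + 1) scale) for the 5 loci under 3 scalings, in 4 comparisons; dotted lines are the medians of all loci under the same scaling. GATA6 lies left of the median in both panels of the FHT-1015 effect under every scaling shown. The baseline estimates of all members except VIL1 change sign with the scaling.

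A difference between the response of HCT116 and the mean response of the other 6 lines was called at none of the 5 loci by limma (adjusted p of at least 0.443), where 0% of loci were called lower and 0.0151% higher. The differences were 0.40 ± 0.71 for CDX1, −0.26 ± 0.49 for CDX2, 0.78 ± 0.55 for HNF4A, 0.65 ± 0.44 for VIL1 and −0.10 ± 0.55 for GATA6, and the median of all loci was 0.57. These standard errors leave room for sizeable differences in either direction.

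Single lines showed where the peaks went. In MV411, GATA6 had 9, 9 and 10 strict peaks under DMSO and 2, 2 and 1 under FHT-1015, a difference of −1.98 ± 0.51 (limma adjusted p = 0.0131), while 8.91% of loci were called lower and the strict lists shrank from 105420 to 121774 peaks to between 52664 and 53585. Scaled per 100000 strict peaks the MV411 difference was −1.21 with no call. In 92-1 GATA6 had 5, 1 and 1 and then 1, 0 and 0 (limma adjusted p = 0.0408) and VIL1 had 5, 4 and 1 and then 3, 0 and 0 (limma adjusted p = 0.00826), beside 58.1% of loci called lower. Both calls rest on the short lists of FHT-1015 samples 2 and 3. Without them, assuming that the lone sample varies like the other groups, GATA6 was −0.53 (limma adjusted p = 0.888), VIL1 was 0.031 (limma adjusted p = 1.00), and 0.101% of loci were called lower. No other member was called in a line. The shares of loci called lower were 1.23% in 22RV1, 21.3% in RD, 0.197% in A375 and 0.474% in DU4475.

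Counts without overlap were found, always with FHT-1015 lower, for CDX1, CDX2, VIL1 and GATA6 in MV411, where 74.6% of loci did so, for CDX2, VIL1 and GATA6 in 22RV1 (38.1%) and for HNF4A in RD (52.9%). No member did so in 92-1 (8.91%), A375 (1.09%) or DU4475 (16.4%). In 22RV1, CDX2 went from 8, 9 and 8 strict peaks to 4, 4 and 4, and GATA6 from 3, 5 and 3 to 1, 1 and 1. In the melanoma line A375 the treatments overlapped at each of the 5 loci, and single FHT-1015 samples exceeded all DMSO samples at CDX2 (0, 4 and 2 against 1, 3 and 0) and VIL1 (7, 11 and 6 against 6, 10 and 4).

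**Figure D5:**
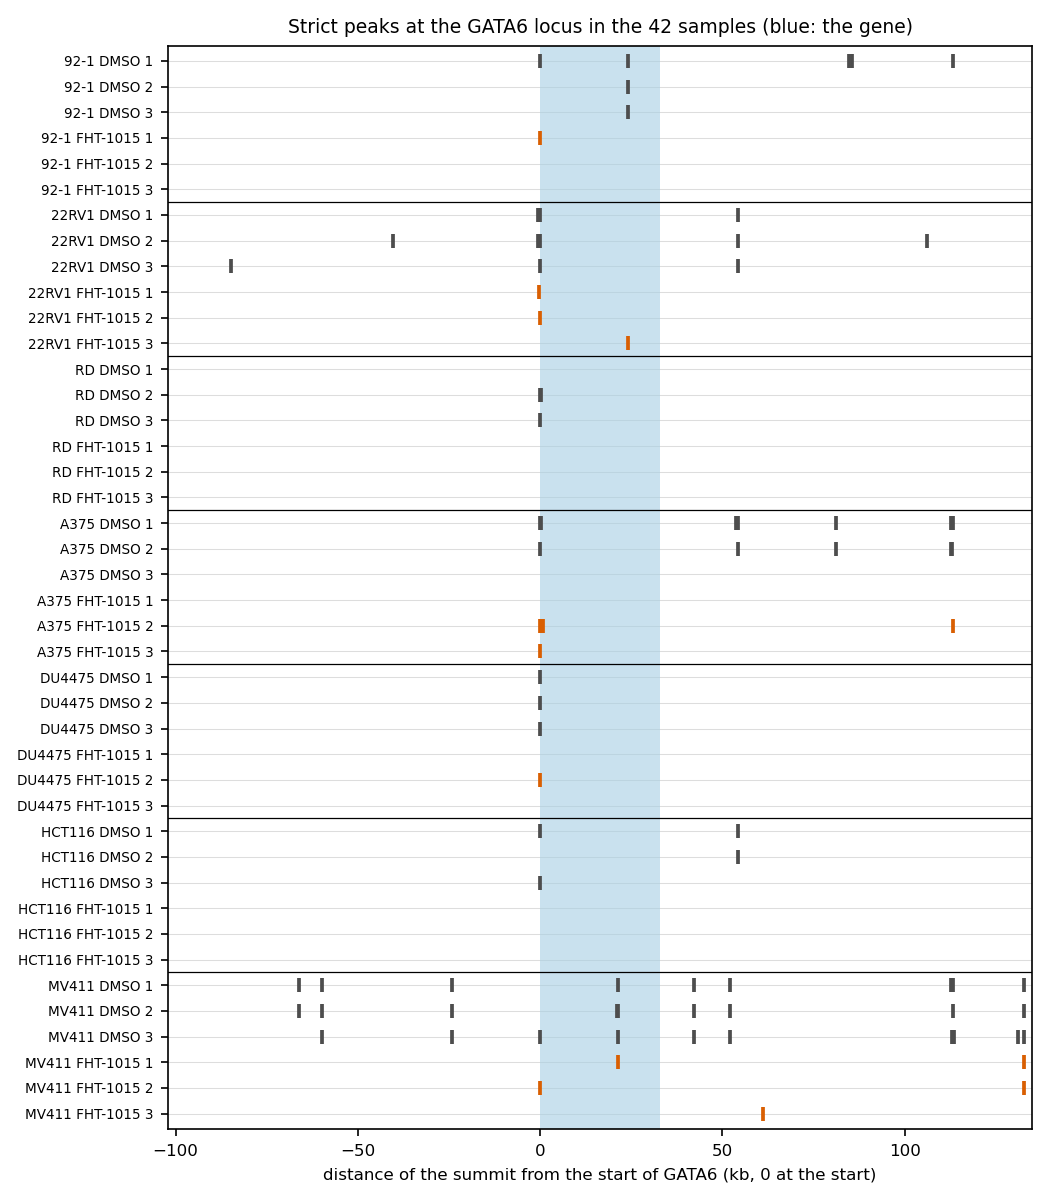
Strict summits at the GATA6 locus in all 42 samples (rows), by distance in kb from the start of the gene, with the gene shaded. MV411 with DMSO has peaks spread over the whole window, most other lines have a row of peaks at the start, and few remain with FHT-1015.

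The strict peaks at GATA6 were also split by place. Over the 7 lines, 68 strict peaks under DMSO and 16 under FHT-1015 fell in the window, and those outside the gene and over 1 kb from its ends went from 43 to 4, where those in the gene or near its ends went from 25 to 12. Without MV411, whose strict lists shortened most in number, they went from 20 to 1 and from 20 to 10. In A375 the peaks in or near the gene went from 3 to 5. These counts pool the 3 samples of each line and treatment, and the split was not made over all loci. Whether it is particular to GATA6 was not tested. Of 7 regions that MV411 had in all 3 DMSO samples, 5 were absent from all FHT-1015 samples, at 59.9, 24.2, 9.35, 19.1 and 80.2 kb from the gene. The region 21.4 kb past GATA6 was called in 7 DMSO samples (3 of 22RV1, 2 of A375, 2 of HCT116) and in no FHT-1015 sample. Its exact stratified permutation p was 0.004 and its adjusted p over all regions 0.649, so it did not pass.

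No region of the 5 loci passed that test, and over the genome 8.77e-04% did, with fewer FHT-1015 samples. At unadjusted p below 0.05 there were 3 of 172, beside 2.72% of all regions. The other 2 were at VIL1: chr2:218438467-218438966, inside the gene, was called in all 3 DMSO samples of 22RV1 and of MV411 and in no FHT-1015 sample (exact stratified p = 0.005), and chr2:218397593-218398092, 21.3 kb away inside CTDSP1, in 5 DMSO samples and none (exact stratified p = 0.02). Among regions in all 3 DMSO samples of a line, the 5 loci lost 15 of 39 in MV411 (32.2% over the genome), 7 of 29 in 22RV1 (26.3%), 2 of 13 in RD (22.1%), 1 of 2 in 92-1 (40.4%), 0 of 10 in A375 (7.53%) and 0 of 29 in DU4475 (6.73%). The shares at the loci rest on few regions, and in 22RV1 the share was 24.1%, near that of the genome. No test of these shares was made.

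Other genes of the intestinal program, 30 in all, were treated in the same way. None was called in HCT116, with a median of −0.11 against 0.000 for all loci. Averaged over the lines 19 of 30 were lower and none higher (67.7% of all loci were lower), and the largest falls were at SOX9, a factor of crypt progenitors, by −1.32, GPA33, an intestinal surface antigen, by −1.07, CDH17, an intestinal cadherin, by −1.05, and ATOH1, the secretory lineage factor, by −1.03. In HCT116 the SOX9 counts were 3, 3 and 3 with DMSO and 2, 2 and 2 with FHT-1015. Before treatment 10 of the 30 were lower in HCT116 than in the other lines and none was higher, beside 46.3% lower over all loci. They were the forkhead factors FOXA1 (−2.16) and FOXA2 (−0.96), the stem cell genes ASCL2 (−2.43, with no strict peak in HCT116 with DMSO) and LGR5 (−1.43), the keratin pair KRT8 (−1.15) and KRT18 (−1.13), whose windows overlap, FABP1 (−1.47), GPA33 (−1.28), ATOH1 (−1.04) and LGALS4 (−0.89). CDH17 stood near level, at 0.14, with 4, 10 and 8 strict peaks in HCT116.

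The loci whose pattern over the 14 group means was most like each member, among those on other chromosomes or over 1 Mb away, were C1orf116, OXGR1 and ZDHHC21 for CDX1 (Pearson r of 0.972, 0.971 and 0.966) and SYK, ADARB2 and EPHA8 for CDX2 (0.967, 0.954 and 0.954). For HNF4A they were UBR1, SSR2 and WWP2 (0.989, 0.981 and 0.979), for VIL1 ZNF445, LARP4B and CDH24 (0.981, 0.980 and 0.979), and for GATA6 POU5F2, ADH1B and STAC (0.943, 0.942 and 0.939). All loci share the lengths of the strict lists, and the top 5% of all loci exceeded 0.851, 0.80, 0.926, 0.927 and 0.815 in the order CDX1, CDX2, HNF4A, VIL1 and GATA6.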

How the data were processed

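Peaks of 42 ATAC-seq samples (7 cell lines, DMSO or FHT-1015 for 4 h, 3 replicates each) were read from lists deposited per sample, in narrowPeak form without header. The submitters' processing notes name Bowtie2, Picard, MACS2, limma, HOMER and build hg38, without versions or order. Per peak, the authors deposited a fold enrichment (a ratio) and a p-value and q-value as −log10, and these served to rank and filter the peaks of one list. No read counts are in the lists, so precision is limited by an unknown depth, and the background pileup solved from fold and p stands in for it. The lines differ in peak widths.

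Members, gene lists and tests were chosen with earlier results of these data known. Strict summits (−log10 q of at least 5) were counted per RefSeq gene (GRCh38.p14) with 100 kb on each side. Loci with a strict peak in at least 3 samples (19847) were fitted with limma 3.58.1 (R 4.3.3) on log2(count + 1), 14 groups, trended eBayes and Benjamini-Hochberg adjustment at 0.05, beside exact permutation tests (scipy 1.17.1). Regions were 500 bp windows around summits, called by an overlap of at least 100 bp. The procedures were tested on simulated data. Named genes were the 5 members, window neighbours, the listed intestinal genes past the threshold and the 3 loci of most similar pattern; SOX9, CDH17, GPA33 and ATOH1 were singled out for the largest mean falls after their values were seen. Alternatives were other thresholds, scalings, windows, pseudocounts, filters, a replicate block and samples or lines left out. The result of 1 marker list is not reported here.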

Additional observations from a re-analysis of the deposited data

How the results depend on the processing

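Every limma comparison was repeated with other thresholds, scalings, windows, constants and samples, and the cause of a change was not tested beyond what the setting itself removes. Averaged over the lines, 5 members were called lower, and this became 0 on all deposited peaks, 1 at q below 0.05, over the 20000 strongest peaks and per 100000 strict peaks, 2 with 50 kb windows and 3 with 10 kb. It was 2 without 92-1, without 22RV1 and without both 92-1 and the third FHT-1015 sample of HCT116 (an alternative added after seeing the data), 1 without FHT-1015 samples 2 and 3 of 92-1 (also added after seeing the data), 1 without MV411, and 3 to 5 when 1 HCT116 sample was left out. Over all loci, 13440 of 19847 were called lower in the main fit of this average. Such calls numbered 598 of 19933 on all deposited peaks, 2083 of 19924 at q below 0.05 and 1540 of 19685 over the 20000 strongest. They numbered 1440 of 19847 per 100000, 11339 of 19719 with 50 kb windows and 7982 of 18872 with 10 kb. Without 92-1, 22RV1 or MV411 they numbered 12451, 11401 and 9036 of 19847. Without both 92-1 and the third FHT-1015 sample of HCT116 they numbered 11353, and 12452 to 13551 when 1 HCT116 sample was left out. Of the baseline comparison, 2 calls became 0 on all deposited peaks, at q below 0.05, over the 20000 strongest and per 100000, and 1 with 50 kb or 10 kb windows, a constant of 0.5, no filter, or without 22RV1, A375, DU4475 or MV411 (1 to 2 without 1 HCT116 sample). For this baseline, 9189 of 19847 loci were called lower in the main fit. They numbered 3698 of 19933 on all deposited peaks, 525 of 19924 at q below 0.05 and 1173 of 19685 over the 20000 strongest. They numbered 520 of 19847 per 100000, 8987 of 19719 with 50 kb windows and 7819 of 18872 with 10 kb. With a constant of 0.5 they numbered 6227 of 19847, and with no filter 9046 of 19974. Without 22RV1, A375, DU4475 or MV411 they numbered 6609, 10049, 6639 and 4085 of 19847. When 1 HCT116 sample was left out they numbered 4137 to 9069. In the other 6 lines, the 3 member calls for FHT-1015 became 1 at q below 0.05 and 0 over the 20000 strongest. At q below 0.05, 5684 of 19924 loci were called lower in RD, 2 in A375, 1 in DU4475 and 0 in 92-1, 22RV1 and MV411. Over the 20000 strongest, 2529 of 19685 were called lower in 92-1, 580 in A375 and 493 in MV411. In 22RV1, RD and DU4475 it was 297, 157 and 2. Leaving out FHT-1015 samples 2 and 3 of 92-1 left 1 sample in that group. The estimates for GATA6 and VIL1 in 92-1 are given with that line above. Regions of the 5 loci lost in HCT116 numbered 2 on deposited peaks and 0 to 1 without 1 sample, and regions gained 0 to 2. Over the genome 1903 were lost on deposited peaks. Without 1 sample, 861 to 1500 were lost there and 471 to 1172 gained. In HCT116 no member was called under any setting run.

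Directions turned as follows. For FHT-1015 in HCT116, CDX1 was 0.20 with 10 kb windows, CDX2 was 0.14 over the 20000 strongest peaks, and HNF4A and VIL1 were −0.27 and −0.38 on deposited peaks and −0.52 and −0.40 at q below 0.05. Without 1 sample the ranges were −0.72 to 0.44 for CDX1, −0.97 to 0.031 for CDX2 and −0.054 to 0.24 for VIL1, which was −0.02 without the third DMSO sample. Averaged over the lines, CDX1, CDX2, HNF4A and VIL1 were 0.10, 0.068, 0.39 and 0.061 over the 20000 strongest, and HNF4A was 0.0053 on deposited peaks. For the difference in response, CDX1 was −0.038 on deposited peaks, −0.74 over the 20000 strongest and −0.51 per 100000, and without 1 HCT116 sample it ranged from −0.039 to 1.12. CDX2 was 0.082 over the 20000 strongest, −0.59 to 0.41 without 1 HCT116 sample and 0.35 without 92-1 and the third FHT-1015 sample. HNF4A and VIL1 were −0.32 and −0.18 on deposited peaks and −0.56 and −0.16 at q below 0.05, and GATA6 ranged from −0.20 to 0.094 without 1 HCT116 sample. For the baseline, CDX1, CDX2, HNF4A and GATA6 were 0.11, 0.053, 0.12 and 0.083 at q below 0.05, 1.08, 0.70, 0.24 and 0.30 over the 20000 strongest and 0.44, 1.30, 0.037 and 0.34 per 100000. CDX2 was also 0.14 with 50 kb windows, 0.10 with a constant of 0.5, −0.26 to 0.10 without 1 HCT116 sample (−0.37 without 92-1 and the third FHT-1015 sample, not reversed), 0.14 without 22RV1, 0.24 without DU4475 and 0.25 without MV411. VIL1 in 92-1 was 0.094 at q below 0.05 and 0.031 without FHT-1015 samples 2 and 3 of that line. GATA6 stayed negative in HCT116 and averaged over the lines under every setting run.

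Replicate numbers did not pair the samples: same-numbered deviations correlated at −0.163 to 0.367, with 5 of 21 pairs above 0.1 and 5 of 21 samples best with their own number. With the replicate block, 5 members were called averaged over the lines, 0 in HCT116, 0 for the difference in response and 7 in the other 6 lines. Under the block, 16952 of 19847 loci were called lower averaged over the lines. In single lines it was 15005 in 92-1, 10645 in RD, 7896 in MV411, 1622 in 22RV1, 359 in DU4475 and 185 in A375. Over all loci the block moved calls of a higher response in HCT116 from 3 to 1572. Counts of 0 to 5 peaks per HCT116 sample limit what can be seen there, and a strict count moves with an unknown read depth.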

Other observations

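Some elements of neighbouring genes had higher −log10 q with FHT-1015 than with DMSO in 2 of 3 HCT116 samples. They were singled out after their values were seen, and no test was made. At the end of TTPAL, in the HNF4A window, the values were 7.24, 9.51 and 16.8 with DMSO and 23.7 and 25.8 in the first and second FHT-1015 samples. Beside PDX1, a pancreatic and duodenal homeobox gene in the CDX2 window, they were 8.67, 5.35 and 6.43 with DMSO and 25.0 and 19.6 with FHT-1015. The third FHT-1015 sample, which stood apart in its list, had no strict peak at either place.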
